A study of Homo sapiens with 6 samples.

Results

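Glycolysis, glucose uptake and lactate transport were followed in SN12C, a human renal carcinoma cell line, through 41 genes listed by name. They comprise glucose transporters, the enzymes from hexokinase to lactate dehydrogenase, monocarboxylate transporters, and enzymes of glycogen and glucose phosphate metabolism. A gene counted as measured when the array annotation assigned it at least 1 probe whose detection p-value was under 0.05 on 3 or more of the 6 arrays. This held for 35 of the 41 genes, with 53 probes, out of 11646 genes and 20348 probes in all. SLC2A4, HKDC1, FBP1, SLC16A1, SLC16A3 and PGM3 had no such probe assigned to them and were not analysed here, so both listed lactate transporters are missing. Of the 53 probes, 51 were detected on all 6 arrays. The exceptions were the GYS1 probe, on 3 shYT and 2 control arrays, and the dimmer PCK2 probe, on 1 shYT and 2 control arrays.

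The 2 arms of SN12C cells were compared by their RNA on Illumina bead arrays. The shYT arm carried doxycycline-inducible pTripz hairpins against YAP and against TAZ (status KD in the labels), and the control arm carried the pTripz vector (status WT), with 3 arrays each. Both arms also carried GFP-luc, received doxycycline for 3 days or longer and spent the last 24 hours in medium without serum. The series calls the 3 arrays of an arm technical repeats, so all p-values measure technical spread between arrays, and the spread between cultures is not known. Whether the lines are clones is not stated in the labels. In RNA of whole cultures, fewer cells of a type and less RNA per cell cannot be told apart.

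Each array detected 19674 to 20971 of the 47315 probes. Across genes, which are not independent replicates, log2 intensities correlated at 0.9828 or above within arms and at 0.9545 or below between arms. Of 10 listed markers of renal epithelium, 6 had a kept probe, and 5 of these, PAX8, KRT8, KRT18, KRT19 and VIM, were detected on all 6 arrays. None of the 3 endothelial or 3 skeletal muscle markers had one, and of 4 blood cell markers only CD14 did. The keratin KRT19 fell with a log2 change of -3.05, KRT8 with -1.07 and VIM with -0.45, while CD14 rose with 0.71. KRT18 (-0.36), PAX8 (0.28) and EPCAM (0.28, detected on 3 arrays) were not called. Their part in the results below was not tested. YAP1, a target of the hairpins, had log2 intensities of 7.33, 6.76 and 6.56 on the shYT arrays, against 8.47, 8.26 and 8.47 on the control arrays. Its log2 change was -1.51 ± 0.193 (SE, adjusted p = 0.000606 in limma). The TAZ gene, WWTR1, was not among the genes with an annotated kept probe, so TAZ knockdown was not checked.

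Glycolysis splits glucose into pyruvate in the cytosol. Its flow is set mainly by glucose uptake, by hexokinase, which traps glucose as glucose 6-phosphate, by phosphofructokinase, and by pyruvate kinase at the end. Many steps have several isoforms made by separate genes, and tumor cells typically choose among them differently from their tissue of origin. Lactate dehydrogenase turns pyruvate into lactate, which leaves the cell through monocarboxylate transporters. Clear cell renal carcinoma is known for high glycolytic gene expression and for stored glycogen. The sample titles do not say whether SN12C is of the clear cell type. YAP and TAZ are transcriptional co-activators that reach DNA through TEAD factors.

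All intensities below are normalized log2 intensities and all changes are shYT minus control on that log2 scale, where 1 unit is a doubling. A gene is represented by its brightest kept probe and is called changed at an adjusted p under 0.05 in limma, adjusted by Benjamini-Hochberg over all 20348 kept probes. Of the 35 measured genes, 6 were higher and 14 lower in shYT cells, and 15 were not called. The share called, 57.1%, stands beside 36.9% of all genes. Over all genes 18.9% were called higher and 18% lower, against 17.1% and 40% of the measured members. The median log2 change was -0.30 over the members and 0.03 over all genes. Of the 35 members, 25 showed no overlap between the arms, beside 50.9% of all genes. Counted by probe, 7 of 53 were higher (13.2%, beside 15.8% of all kept probes) and 19 lower (35.8%, beside 16.5%). In all 49.1% of the member probes were called, beside 32.3% of all kept probes.

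**Figure D1:**
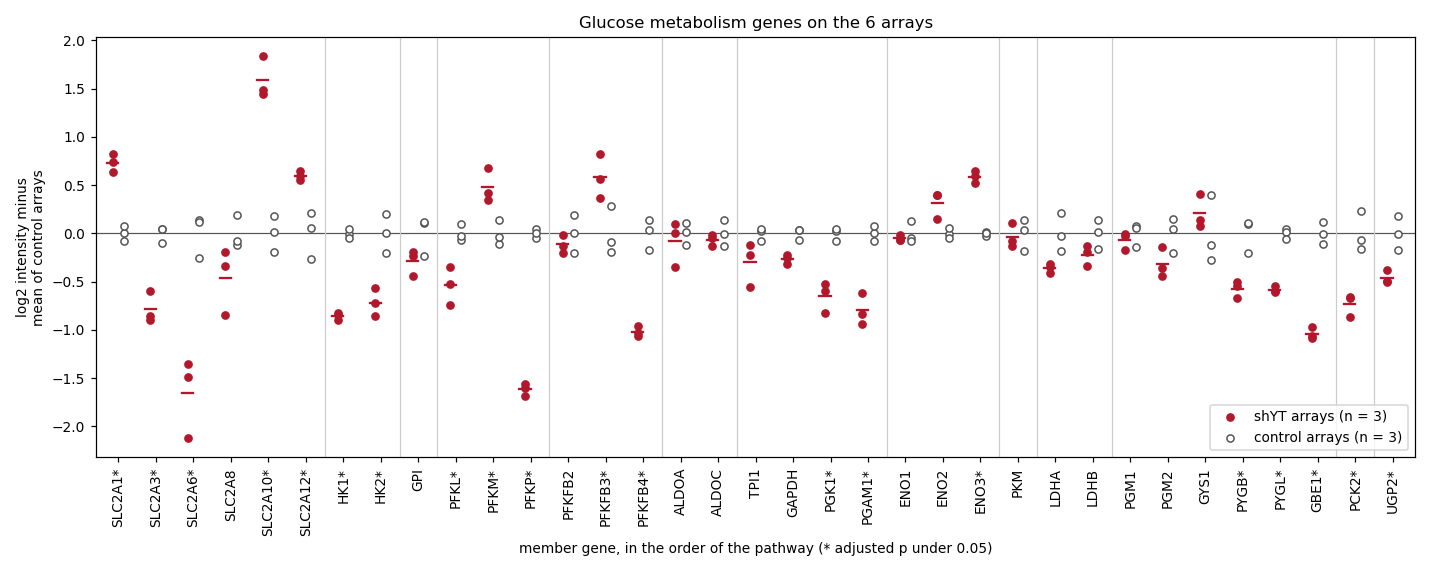
Log2 intensity of the brightest probe of each of the 35 measured genes on each array, minus the mean of the 3 control arrays, in pathway order. Filled points are shYT arrays with their mean as a bar, open points are control arrays, and an asterisk marks an adjusted p under 0.05. SLC2A10 lies farthest above the control arrays, and SLC2A6 and PFKP farthest below.

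Glucose transporters went in both directions. Of 6 measured members of the SLC2A family, 3 rose, 2 fell and 1 was not called. SLC2A10, a facilitative transporter mutated in arterial tortuosity syndrome, gave 9.17, 8.82 and 8.78 on the shYT arrays, against 7.14, 7.51 and 7.34 on the control arrays. All 3 shYT arrays lay above all control arrays, and the log2 change of 1.59 ± 0.149 (SE, adjusted p = 0.000121) corresponds to 3.01-fold. A second SLC2A10 probe rose by 1.35 ± 0.177. SLC2A1, which encodes GLUT1, the basal glucose transporter of most cells, had 10.85, 10.93 and 10.75 in shYT cells, against 10.11, 10.19 and 10.03 in control cells. It rose 1.66-fold, by 0.73 ± 0.109 (SE, adjusted p = 0.00133), with a narrow spread in both arms. SLC2A12, which encodes the transporter GLUT12, was at 7.19, 7.28 and 7.23 on shYT arrays and at 6.37, 6.85 and 6.69 on control arrays. Its rise of 0.60 ± 0.138 had an adjusted p of 0.0113, and was 0.37 with no background correction.

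The bases upstream of these genes are shown for the 2 called rises with the largest change among members with a single annotated start. Each window holds the 250 bases before the RefSeq start on GRCh38.p14, in the direction of the gene. Capitals mark ACGTG, a form of the core motif of hypoxia-inducible factors (HIF), and GGAATG, a motif of TEAD factors, on either strand. Other forms of these motifs were not searched, and a match means these letters only. The SLC2A10 window, chr20:46709399-46709648 on the plus strand, holds 1 ACGTG and 0 GGAATG. The SLC2A1 window, chr1:42958869-42959118 on the minus strand, holds 0 of either.
SLC2A10: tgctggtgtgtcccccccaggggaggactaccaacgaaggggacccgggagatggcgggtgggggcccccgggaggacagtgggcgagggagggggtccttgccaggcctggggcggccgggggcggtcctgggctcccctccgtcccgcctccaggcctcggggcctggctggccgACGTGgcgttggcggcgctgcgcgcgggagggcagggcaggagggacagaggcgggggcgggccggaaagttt
SLC2A1: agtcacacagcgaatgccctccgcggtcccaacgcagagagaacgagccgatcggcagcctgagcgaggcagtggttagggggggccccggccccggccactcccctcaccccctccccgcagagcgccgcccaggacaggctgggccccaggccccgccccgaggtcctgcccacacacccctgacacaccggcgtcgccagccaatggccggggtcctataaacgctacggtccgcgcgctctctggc

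SLC2A6 and SLC2A3 fell. SLC2A6, an intracellular member of the family, had 6.001, 6.77 and 6.64 on shYT arrays, against 7.87, 8.26 and 8.24 on control arrays. Its change of -1.65 ± 0.209 (SE, adjusted p = 0.000584), 3.15-fold lower, was close in size to that of PFKP below, and shYT array 1 was the lowest of its arm. SLC2A3 encodes GLUT3, a high-affinity transporter best known from neurons. It gave 8.35, 8.61 and 8.30 in shYT cells and 9.10, 9.25 and 9.25 in control cells, a change of -0.78 ± 0.123 (SE, adjusted p = 0.00177). SLC2A8, another intracellular family member, changed by -0.46 ± 0.182 with no overlap between the arms, but its adjusted p was 0.0895, or 0.0271 with the array number as a block.

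Both measured hexokinases fell. HK1, the isoform of most tissues, had 9.35, 9.28 and 9.33 on shYT arrays, against 10.17, 10.23 and 10.13 on control arrays. This was 1.81-fold lower (-0.85 ± 0.101 SE, adjusted p = 0.000412), and the arrays of an arm differed little. HK2, the isoform known from insulin-sensitive tissue and many tumors, gave 6.26, 5.97 and 6.10 on shYT arrays and 6.83, 6.63 and 7.03 on control arrays. Its brightest probe fell by 0.72 ± 0.139 on the log2 scale (adjusted p = 0.00497). With no background correction its change was -0.39. A dimmer HK2 probe gave -0.39 ± 0.198 and missed the threshold (adjusted p = 0.18). GPI, the isomerase of the next step, changed by -0.29 ± 0.136 and was not called (adjusted p = 0.145).

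Phosphofructokinase, the committed step, is a tetramer of platelet, liver and muscle type subunits, and its 3 genes did not move together. PFKP, the platelet type, had 8.96, 9.09 and 9.04 in shYT cells, against 10.69, 10.60 and 10.65 in control cells. The change of -1.61 ± 0.103 (3.06-fold lower) had the smallest adjusted p of all members, 1.6e-05. PFKL, the liver type, fell to 5.52, 5.92 and 5.74 on shYT arrays, against 6.20, 6.24 and 6.36 on control arrays, by 0.54 ± 0.13 on the log2 scale (adjusted p = 0.0141), and its change was -0.25 with no background correction. PFKM, the muscle type, was higher, at 9.39, 9.72 and 9.46 on shYT arrays and 8.94, 9.18 and 9.01 on control arrays, by 0.48 ± 0.13 (adjusted p = 0.0218). The smaller calls depended on single arrays: that of PFKL ended without control array 3 (adjusted p = 0.0588). That of PFKM ended without control array 1 (0.0648), control array 3 (0.0748) or shYT array 2 (0.0775), and with median scaling (0.0886).

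The bifunctional PFKFB enzymes make and break fructose 2,6-bisphosphate, the strongest activator of phosphofructokinase. PFKFB4 gave 6.33, 6.43 and 6.36 on shYT arrays and 7.43, 7.53 and 7.22 on control arrays, 2.03-fold lower (-1.02 ± 0.119 SE, adjusted p = 0.000373), with a change of -0.63 without background correction. PFKFB3, the isoform with the highest kinase relative to phosphatase activity, had 9.72, 9.46 and 9.26 in shYT cells, against 8.70, 8.81 and 9.19 in control cells. It was 1.5-fold higher (0.58 ± 0.168 SE, adjusted p = 0.0284), with control array 3 close to the lowest shYT array. The PFKFB3 call was the least stable among the members. Apart from median scaling over all probes, which ended most calls, it ended without control array 1 (adjusted p = 0.0855), control array 2 (0.088), shYT array 1 (0.0686), shYT array 2 (0.069) or both arrays numbered 1 (0.106), with median scaling (0.0698), with no detection filter (0.0726) and with its dimmer probe (0.231). PFKFB2 was not called, at -0.11 ± 0.131 and, on its second probe, -0.05 ± 0.135.

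In the later steps of the pathway PGK1 and PGAM1 fell by every probe. PGK1, the first ATP-yielding enzyme, had 10.52, 10.22 and 10.44 on shYT arrays, against 10.97, 11.07 and 11.09 on control arrays. Its 2 probes fell by 0.65 ± 0.119 (adjusted p = 0.00388) and 0.88 ± 0.121 (adjusted p = 0.00091) on the log2 scale. PGAM1, phosphoglycerate mutase, gave 9.90, 10.00 and 10.22 in shYT cells and 10.75, 10.84 and 10.91 in control cells. Its 2 probes fell by 0.80 ± 0.122 (adjusted p = 0.00157) and 1.04 ± 0.127 (adjusted p = 0.000494), and neither overlapped between arms. PGAM4, a near-identical retrocopy, has a probe of its own that fell by 0.79 ± 0.124, and whether these probes share transcripts was not tested.

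The upstream windows of both genes are shown because each was called lower and has a single annotated start with a match. SLC2A6, PFKFB4, PFKL, PYGB, PYGL and PCK2, which fell and have a single start without a match, are not shown. The 2 rises above were picked with or without a match. The PGAM1 window, chr10:97427568-97427817 on the plus strand, holds 2 GGAATG matches, 1 on each strand, and 0 ACGTG. The PGK1 window, chrX:78103998-78104247 on the plus strand, holds 2 ACGTG matches, 1 on each strand, and 0 GGAATG.
PGAM1: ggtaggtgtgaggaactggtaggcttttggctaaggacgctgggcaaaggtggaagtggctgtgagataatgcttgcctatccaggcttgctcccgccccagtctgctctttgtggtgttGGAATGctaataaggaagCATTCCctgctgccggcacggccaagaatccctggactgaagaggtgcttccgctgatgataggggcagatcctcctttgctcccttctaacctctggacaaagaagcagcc
PGK1: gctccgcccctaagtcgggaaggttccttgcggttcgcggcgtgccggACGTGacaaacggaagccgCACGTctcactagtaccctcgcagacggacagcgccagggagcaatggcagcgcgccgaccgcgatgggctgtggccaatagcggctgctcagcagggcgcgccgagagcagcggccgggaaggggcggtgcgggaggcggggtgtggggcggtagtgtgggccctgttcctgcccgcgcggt

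By their brightest probes, aldolase, triose phosphate isomerase and GAPDH were not called. ALDOA, the main aldolase, had 11.32, 11.67 and 11.76 on shYT arrays, against 11.55, 11.77 and 11.67 on control arrays, so the arms overlapped (-0.08 ± 0.142). ALDOC, the brain type, was close to background at 4.55, 4.66 and 4.63 in shYT cells and 4.55, 4.81 and 4.67 in control cells (-0.06 ± 0.114). TPI1, triose phosphate isomerase, gave -0.30 ± 0.137 and -0.29 ± 0.116 on its 2 probes, without overlap between the arms, at adjusted p-values of 0.134 and 0.0939. GAPDH, the dehydrogenase often used as a loading control, had 3 probes. They gave -0.27 ± 0.103, -0.30 ± 0.104 and -0.55 ± 0.125 from the brightest to the dimmest, with adjusted p-values of 0.0839, 0.0583 and 0.0103, and the arms did not overlap on any of them. The brightest GAPDH probe passed with no background correction (adjusted p = 0.0105), no detection filter (0.0343) or an intensity trend in the prior (0.0186). By the mean of their probes GAPDH (0.0148) and TPI1 (0.0398) passed as well.

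Enolase isoforms differed. ENO1, the ubiquitous form, gave 13.04, 12.98 and 12.99 on shYT arrays and 13.004, 12.98 and 13.18 on control arrays, a change of -0.05 ± 0.108 (adjusted p = 0.758). ENO3, the form known from skeletal muscle, had 8.10, 8.23 and 8.17 in shYT cells, against 7.60, 7.56 and 7.58 in control cells. It rose 1.5-fold (0.59 ± 0.102 SE, adjusted p = 0.00292), while its dimmer probe gave 0.39 ± 0.179 and was not called. ENO2, the neuronal form, was at 7.17, 7.41 and 7.42 on shYT arrays and at 7.01, 6.97 and 7.08 on control arrays. Its change of 0.32 ± 0.116 was not called (adjusted p = 0.068). The adjusted p of ENO2 reached 0.0495 with the array number as a block and 0.0385 with no background correction. It was 0.0332 without shYT array 1, 0.0365 without both arrays numbered 1 and 0.0471 in the fit to the mean of each gene's probes. None of the muscle markers CKM, MYH2 and ACTA1 had a kept probe.

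Pyruvate kinase and lactate dehydrogenase close the pathway. The 3 probes of PKM changed by -0.03 ± 0.128, -0.20 ± 0.139 and 0.05 ± 0.147, and none was called. LDHA, which favours lactate formation, had 12.84, 12.87 and 12.77 on shYT arrays, against 13.001, 13.40 and 13.15 on control arrays. All shYT arrays lay below all control arrays, yet its brightest probe missed the threshold (-0.36 ± 0.128 SE, adjusted p = 0.0632), and its adjusted p was 0.0369 with the array number as a block. Its second probe fell by 0.42 ± 0.114 (adjusted p = 0.023), and the dimmest gave -0.26 ± 0.136 (adjusted p = 0.18). The brightest LDHA probe also passed without control array 1 (adjusted p = 0.0397) and without both arrays numbered 1 (0.0304). It passed as well with no background correction (0.0303), an intensity trend in the prior (0.0113) or 1 probe per gene in the fit (0.048). By the mean of its probes LDHA was at 0.0355. LDHB, the heart-type subunit, gave 9.92, 10.12 and 10.07 on shYT arrays and 10.27, 10.10 and 10.39 on control arrays, with overlap (-0.22 ± 0.122).

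**Figure D2:**
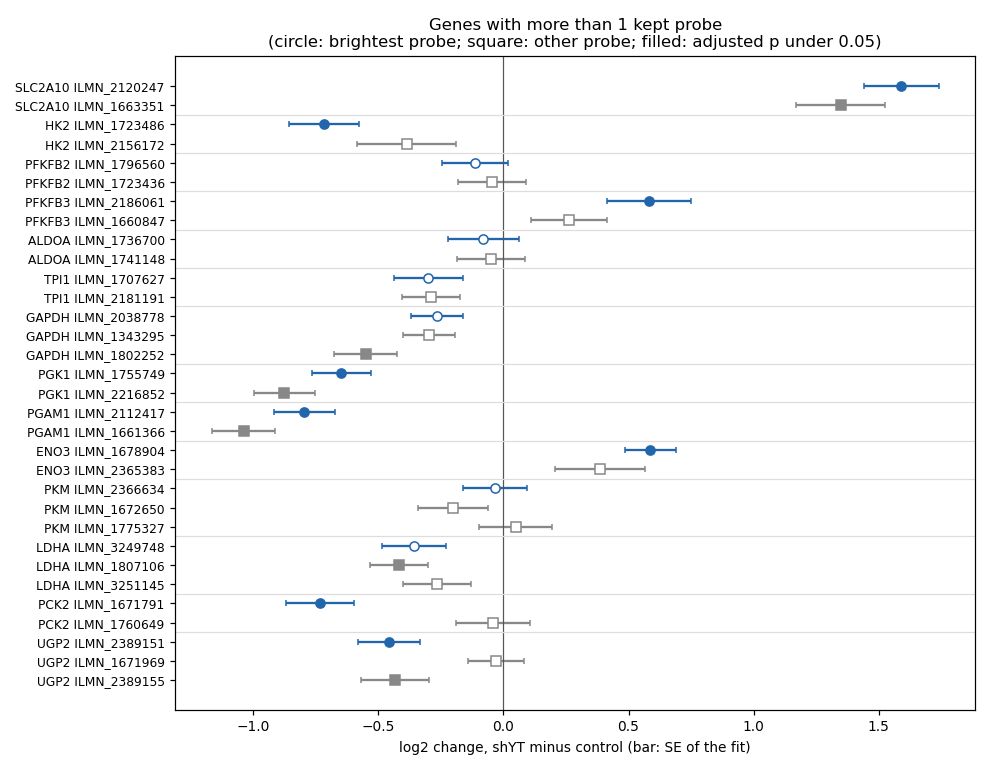
Log2 change, shYT minus control, with its SE for every kept probe of the 14 genes that have more than 1. Circles are the brightest probe, squares the others, and filled symbols have an adjusted p under 0.05. PKM alone has probes on both sides of 0. For HK2, PFKFB3, ENO3, PCK2 and UGP2, whose brightest probe is called, a dimmer probe lies nearer to 0 and is not called.

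The glycogen enzymes among the members were lower or not called. GBE1, the branching enzyme, gave 6.83, 6.81 and 6.92 in shYT cells, against 7.78, 8.01 and 7.89 in control cells. The arms lay apart, and GBE1 was 2.05-fold lower (-1.04 ± 0.111 SE, adjusted p = 0.000238). Both measured glycogen phosphorylases, which release glucose 1-phosphate, fell to a like extent. PYGB, the brain form, had 7.32, 7.15 and 7.28 on shYT arrays and 7.92, 7.62 and 7.93 on control arrays (-0.57 ± 0.126, adjusted p = 0.00879). PYGL, the liver form, had 8.01, 7.95 and 7.94 on shYT arrays and 8.59, 8.56 and 8.49 on control arrays (-0.58 ± 0.102, adjusted p = 0.003). GYS1, glycogen synthase, lay near background and was not called (0.21 ± 0.186, adjusted p = 0.445).
The window upstream of GBE1, chr3:81761646-81761895 on the minus strand, is shown by the same rule as those of PGAM1 and PGK1. It has a single annotated start and a match, 1 ACGTG.
GBE1: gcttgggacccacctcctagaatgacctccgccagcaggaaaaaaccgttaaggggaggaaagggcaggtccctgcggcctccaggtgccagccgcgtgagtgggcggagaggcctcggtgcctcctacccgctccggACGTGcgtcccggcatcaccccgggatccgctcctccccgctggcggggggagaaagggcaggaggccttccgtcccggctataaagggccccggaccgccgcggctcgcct

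Of the other members, the phosphoglucomutases PGM1 and PGM2 were not called, and UGP2 and PCK2 fell. PGM1, the main phosphoglucomutase, gave 10.15, 10.30 and 10.32 in shYT cells and 10.19, 10.41 and 10.38 in control cells (-0.07 ± 0.115). PGM2, which acts mainly on pentose phosphates, gave 6.84, 7.14 and 6.93 in shYT cells and 7.08, 7.33 and 7.44 in control cells (-0.31 ± 0.137, adjusted p = 0.119). UGP2 makes UDP-glucose, the donor for glycogen. Its brightest probe fell by 0.46 ± 0.124 on the log2 scale (adjusted p = 0.022), another by 0.43 ± 0.136 (0.0404), and the third gave -0.03 ± 0.113. The UGP2 call ended without control array 2 (adjusted p = 0.0675), control array 3 (0.0689), shYT array 2 (0.0707) or shYT array 3 (0.0712). PCK2, the mitochondrial PEP carboxykinase of gluconeogenesis, had 6.07, 6.27 and 6.27 on shYT arrays and 7.17, 6.86 and 6.77 on control arrays. It fell by 0.73 ± 0.137 on the log2 scale (adjusted p = 0.00422), while its barely detected second probe gave -0.04 ± 0.146. With no background correction the brightest probe gave -0.41, and the mean of both probes was -0.39.

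Isoforms of 1 step were set against each other within each array, as the difference of their log2 intensities. Only its shift between arms is read, since probes differ in brightness. Of 11 listed pairs 10 could be formed, SLC16A1 with SLC16A3 being the exception. Two-sided exact permutation tests over arrays were used, whose smallest possible p is 0.1 with 3 arrays against 3, so no pair could pass a threshold of 0.05. No overlap between arms was seen for 6 of the 10 pairs, each with an exact p = 0.1 (0.167 adjusted over the 10 pairs), and for 54.4% of all pairs that the 11646 genes can form, so the count itself is near the background. PFKM minus PFKP had the largest shift, with 0.43, 0.64 and 0.42 on shYT arrays, against -1.75, -1.42 and -1.64 on control arrays. This is a shift of 2.10 toward PFKM. PFKFB3 minus PFKFB4 was 3.39, 3.03 and 2.91 on shYT arrays and 1.27, 1.28 and 1.97 on control arrays, a shift of 1.60 toward PFKFB3. SLC2A1 minus SLC2A3 was 2.50, 2.33 and 2.45 on shYT arrays and 1.01, 0.94 and 0.78 on control arrays, a shift of 1.52 toward SLC2A1. PFKL minus PFKP shifted by 1.08 toward PFKL, or by 1.24 with no background correction, although both fell. The PFKL probe is much dimmer than that of PFKP, and how far background adds to this shift was not tested. ENO1 minus ENO2 shifted by -0.37, but the arms overlapped with median scaling (-0.43, exact p = 0.3). PGM1 minus PGM2 shifted by 0.24, or by 0.14 with no background correction and 0.15 with median scaling. The remaining 4 pairs overlapped between arms, with shifts of -0.14 for HK1 minus HK2 (exact p = 0.4), -0.02 for ALDOA minus ALDOC (exact p = 1), -0.14 for LDHA minus LDHB (exact p = 0.6) and 0.01 for PYGB minus PYGL (exact p = 0.9). With no background correction HK1 minus HK2 did not overlap, at a shift of -0.39 (exact p = 0.1).

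**Figure D3:**
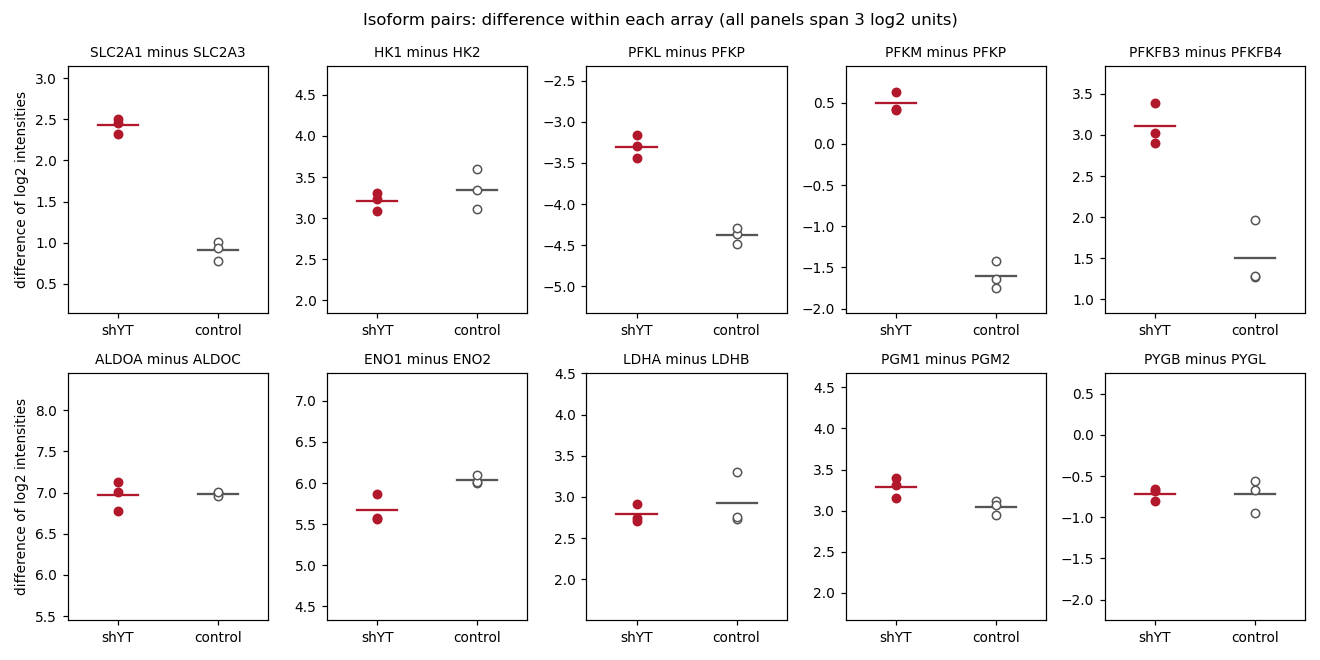
Difference of the log2 intensities of the brightest probes of 2 isoforms within each array, for 10 pairs. Points are arrays (filled for shYT, open for control), bars are means of 3 arrays, and each panel spans 3 log2 units. The arms lie farthest apart for PFKM minus PFKP and overlap for HK1 minus HK2, ALDOA minus ALDOC, LDHA minus LDHB and PYGB minus PYGL.

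Neighbouring genes of glucose and glycogen metabolism were taken from a separate list of 70, of which 38 had a kept probe. Of these 10 rose, 9 fell and 19 were not called, so 50% were called beside 36.9% of all genes, and their median log2 change was 0.11. TXNIP, which encodes an inhibitor of glucose uptake that glucose itself induces, had 11.49, 11.79 and 11.82 on shYT arrays, against 9.86, 9.99 and 10.00 on control arrays. It rose 3.37-fold (1.75 ± 0.126 SE, adjusted p = 3.03e-05), the largest rise in that list. Its relative ARRDC4 rose by 0.47 ± 0.122 (adjusted p = 0.0194). SLC16A1 and SLC16A3 were not analysed here. SLC16A7, which encodes the monocarboxylate transporter MCT2, was the measured lactate and pyruvate transporter of the member and neighbouring lists. It gave 8.62, 8.13 and 8.07 in shYT cells and 6.83, 7.06 and 6.85 in control cells, a 2.57-fold rise (adjusted p = 0.000427). BSG, basigin, the chaperone that brings MCT1 and MCT4 to the cell surface, rose 1.69-fold, and LDHD, the mitochondrial D-lactate dehydrogenase, 1.95-fold.

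Among the falls, GPD1L, a glycerol 3-phosphate dehydrogenase-like protein, was 2.35-fold lower (adjusted p = 0.000334). TIGAR, a bisphosphatase that lowers fructose 2,6-bisphosphate, was 2.33-fold lower (adjusted p = 0.000391). GALM and GALK1, which feed galactose into the pathway, were 2.01-fold and 1.51-fold lower. BPGM, which makes 2,3-bisphosphoglycerate, fell by 0.63 and GYG2, a glycogenin, fell by 0.70 on the log2 scale, while the phosphorylase kinase subunits PHKB and PHKG2 rose by 0.52 and 0.62. ADPGK, an ADP-dependent glucokinase, rose by 0.55, PGM2L1, a glucose 1,6-bisphosphate synthase, by 0.50 and GALT, the uridylyltransferase of galactose use, by 0.42. PPP1R3B, a glycogen-targeting phosphatase subunit, was called lower, but it was detected on 1 shYT and 3 control arrays and so was kept through the arm where it is higher. HIF1A, the oxygen-regulated transcription factor of many glycolytic genes, was 1.47-fold lower (adjusted p = 0.00469), and MYC was not called (0.12 ± 0.104).

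**Figure D4:**
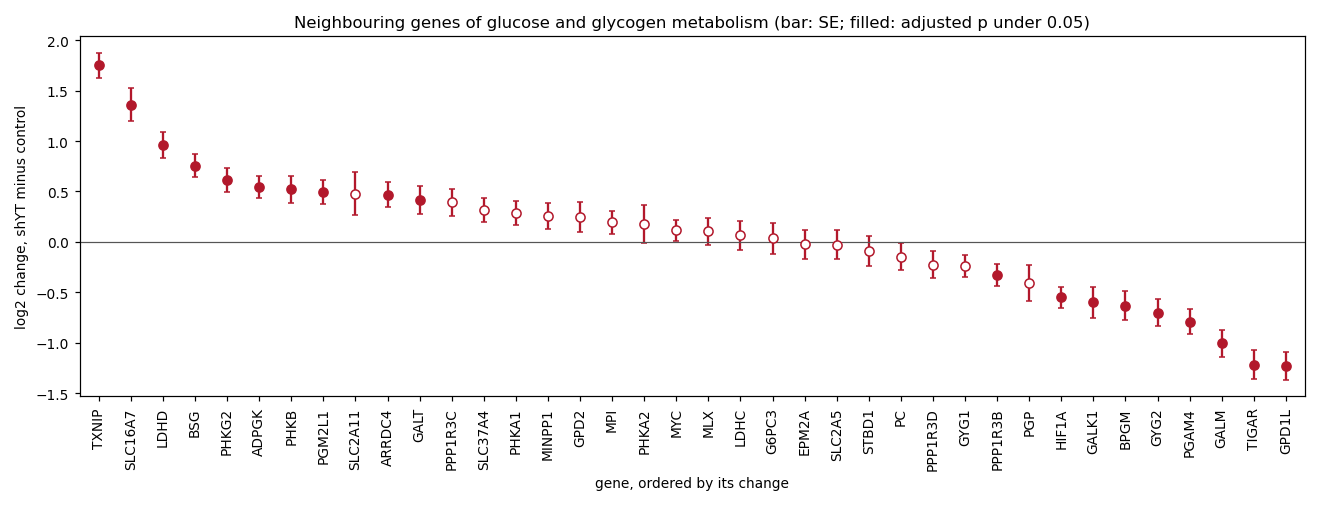
Log2 change, shYT minus control, with its SE for the 38 measured genes of the neighbouring list, ordered by the change. Filled points have an adjusted p under 0.05. TXNIP and SLC16A7 lie highest, and TIGAR and GPD1L lowest.

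RefSeq promoter windows were found for 33 of the 35 measured members, 58 windows in all because some genes have several starts (7 each for HK1 and PFKM). ACGTG, searched on both strands, was in 20 of the 58 (34.5%) and in 18.5% of all 35116 promoter windows of 250 bases. It was in 3 of 14 windows of members that rose, 6 of 24 of members that fell and 11 of 20 of members not called. CACGTG, the E-box, which contains ACGTG, was in 7 of 58 and in 6.34% of all windows. GGAATG was in 4 of 58 (6.9%) and in 11.9% of all windows, in those of PFKFB3, PFKP, PGAM1 and ENO1. By call GGAATG was in 1 of 14 windows of members that rose, 2 of 24 of members that fell and 1 of 20 of members not called. Windows of 1 gene can overlap, and these matches describe letters only.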

How the data were processed

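RNA of SN12C cells (3 shYT and 3 control samples) was measured on Illumina bead arrays, and arrays were grouped by their titles. The deposited table holds probe intensity without normalization and a detection p-value per probe and array, per the file headers. A second deposited table holds log2 values. The submitters' processing notes name limma for it, and further steps are not stated in the labels or file headers. It differed from the values computed here by at most 7.4e-05, so its scale is log2, uncentred. The medians of its columns, in the authors' deposited table, were 6.257 to 6.262.

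All 48202 lines, 887 of them without a probe identifier, entered normexp (from detection p-values, offset 16) and quantile normalization (neqc, limma 3.58.1, R 4.3.3), and the 887 were then left out. Kept were 20348 of 47315 probes, detected (p under 0.05) on at least 3 arrays. The platform annotation gave 15493 of them 1 symbol and 4 several, and 4851 were unnamed, which left 11646 genes. By Entrez identifier 15484 matched a current table, and 0 symbols changed. A 2-group limma model (lmFit, eBayes) was fitted to all kept probes, with Benjamini-Hochberg adjustment, and errors of changes are SEs of this fit. The fit was tested on simulated data and missed most of the smaller changes put there. Far fewer probes were changed there than were called here, which makes the adjusted threshold stricter. Its misses there therefore do not measure those in these data. A gene not called is not shown to be unchanged. The number of arrays limits the precision. Array values are given for YAP1, for members called with an absolute change of 0.5 or more, and for isoform pairs, and outside that rule for TXNIP and SLC16A7, chosen after their values were seen. Members, lists and pairs were chosen with earlier results of these data known, so no test of a list is given, and the promoters shown were picked after their values were seen.

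Deviations from the arm means correlated at 0.627, 0.27 and 0.467 between arrays numbered 1, 2 and 3. All exceed 0.1, so a fit with the numbers as pairs was run as an alternative, and blocked values are given where they change a call. The main fit and the tests of isoform pairs left the arrays unpaired. Array 2 of shYT correlated better with control array 3 (0.378), and array 3 of shYT with control array 2 at 0.222, so the pairing is uncertain. The alternatives were other background corrections, scalings, filters, probes, priors and the leaving out of arrays.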

Additional observations from a re-analysis of the deposited data

How the results depend on the processing

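The 6 higher and 14 lower members were recounted under 20 other settings. Leaving out 1 array gave 4 to 6 higher and 12 to 15 lower members, 5 to 7 higher and 15 to 19 lower probes, a median log2 change of -0.34 to -0.24, and 3093 to 3873 called genes, against 4298. With the replicate number as a block 7 members were higher and 16 lower (5252 genes called), the added calls being SLC2A8, ENO2 and LDHA, and no other member's call changed. Median scaling over all probes, a setting added after the data were seen, gave 1 higher and 2 lower members (SLC2A10, SLC2A6 and PFKP), 2 higher and 3 lower member probes and 1071 called genes. Median scaling over probes detected on all 6 arrays gave 4 higher and 14 lower members. The cause was not tested. These 3 genes, SLC2A10, SLC2A6 and PFKP, kept their call in all 20 settings. With an intensity trend in the prior 6 members were higher and 16 lower, and by the mean of each gene's probes 7 and 17. With no background correction 7 were higher and 16 lower, and the changes of PFKL, HK2, PCK2, PFKFB4 and SLC2A12 were smaller by over 1.5 times and still called. With the dimmest probe of each gene the calls of HK2, PFKFB3, ENO3, PCK2 and UGP2 ended. Signs turned only in uncalled genes. Leaving out 1 array gave -0.12 to 0.038 for PKM (above 0 without control array 1, and 0.012 without shYT array 1), -0.13 to 0.0028 for ALDOC (above 0 without control array 2), -0.092 to 0.01 for ENO1 (above 0 without control array 3) and -0.17 to 0.053 for ALDOA (above 0 without shYT array 1). PKM was at 0.081 without both arrays numbered 1. Dim probes such as those of GYS1 and ALDOC lie near background, which limits what they can show.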
